A study of Mus musculus with 6 samples.

Results

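Secreted Wnt antagonists are extracellular proteins that keep Wnt ligands from reaching or engaging their receptors. The 9 genes examined were the secreted frizzled-related genes Sfrp1, Sfrp2, Frzb, Sfrp4 and Sfrp5, the Wnt inhibitory factor gene Wif1, and the Dickkopf genes Dkk1, Dkk2 and Dkk3. All probe sets whose annotation names exactly 1 gene, and that gene 1 of the 9, were taken, which gave 17 probe sets of 45037 that are not controls (18193 named genes). Sfrp1 had 5 probe sets, Frzb, Sfrp5, Dkk1 and Dkk3 had 2 each, and Sfrp2, Sfrp4, Wif1 and Dkk2 had 1 each. The genes were measured in total RNA of mouse embryonic lungs at E18.5, shortly before birth, on 6 Affymetrix Mouse430_2 arrays. Of these, 3 were labelled GATA6 KO (KO 1, KO 2 and KO 3), described as GATA6 null tissue, and 3 were labelled wild-type (WT 1, WT 2 and WT 3). The labels name no allele, Cre driver, strain or sex, and they do not tell whether an array holds a single embryo or a pool, so the p-values measure the spread between arrays, which may be technical.

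Wnt ligands signal through frizzled receptors and the co-receptors LRP5 and LRP6 to stabilise beta-catenin, and in fetal lung they act between the epithelium and the surrounding mesenchyme. SFRP proteins carry a frizzled-like cysteine-rich domain and bind Wnts directly, as does WIF1 through a domain of its own. DKK1 and DKK2 instead bind LRP5 and LRP6, with the Kremen proteins as partners, and DKK3 is the divergent member of that family. GATA6 is a zinc finger transcription factor of the lung epithelium, and the series asks which lung genes it regulates.

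Because GATA factors bind short GATA words in DNA, the promoters were searched for them, and 4 promoters are shown, the 2 found here for genes with a readable signal on the arrays (Sfrp2 and Wif1) and the 2 that hold GATA words (Frzb and Sfrp5). RefSeq promoters of GRCm38.p6, each 250 bases before to 50 after a transcript start, were found for 6 of the 9 genes, namely Sfrp2, Frzb, Sfrp5, Wif1, Dkk1 and Dkk2. For Sfrp2 that transcript start lies 571 bases inside the annotated gene and for Dkk2 26 bases, while for the other 4 it is the gene's outer end. The GATA words searched were AGATAA with its variant AGATAG, and TGATAA with its variant TGATAG. The TCF/LEF word, bound by the partners of beta-catenin, was CTTTGA, and all were searched on both strands. The windows lie at chr3:83766071-83766370 (plus strand) for Sfrp2, chr10:121033754-121034053 (plus strand) for Wif1, chr2:80447347-80447646 (minus strand) for Frzb and chr19:42202203-42202502 (minus strand) for Sfrp5, each read 5′ to 3′ on the gene's strand with matches of either kind in capitals.
Sfrp2: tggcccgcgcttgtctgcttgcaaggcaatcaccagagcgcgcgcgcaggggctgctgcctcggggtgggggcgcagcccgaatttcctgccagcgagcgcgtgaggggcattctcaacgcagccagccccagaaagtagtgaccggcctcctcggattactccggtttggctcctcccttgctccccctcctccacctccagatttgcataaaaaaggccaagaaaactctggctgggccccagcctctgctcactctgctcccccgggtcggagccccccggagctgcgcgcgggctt
Wif1: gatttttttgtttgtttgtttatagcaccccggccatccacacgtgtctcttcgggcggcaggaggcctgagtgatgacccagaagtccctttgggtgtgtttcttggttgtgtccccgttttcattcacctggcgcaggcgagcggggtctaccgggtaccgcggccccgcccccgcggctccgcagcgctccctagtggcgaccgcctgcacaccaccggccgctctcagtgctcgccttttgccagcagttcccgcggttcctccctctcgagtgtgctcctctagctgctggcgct
Frzb: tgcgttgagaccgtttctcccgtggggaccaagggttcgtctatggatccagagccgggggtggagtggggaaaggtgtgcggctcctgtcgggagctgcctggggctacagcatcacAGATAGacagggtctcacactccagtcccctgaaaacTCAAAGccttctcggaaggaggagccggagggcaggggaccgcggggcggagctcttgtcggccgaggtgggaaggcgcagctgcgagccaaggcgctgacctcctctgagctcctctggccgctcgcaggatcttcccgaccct
Sfrp5: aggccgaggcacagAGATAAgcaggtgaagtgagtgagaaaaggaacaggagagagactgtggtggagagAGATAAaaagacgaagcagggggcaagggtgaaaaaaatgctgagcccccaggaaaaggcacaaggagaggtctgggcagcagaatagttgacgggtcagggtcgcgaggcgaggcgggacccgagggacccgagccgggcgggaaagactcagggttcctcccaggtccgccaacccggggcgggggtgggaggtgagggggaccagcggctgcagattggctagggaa
GATA words stood in 2 of the 6 promoters, AGATAG once in Frzb (132 bases before the transcript start) and AGATAA at 2 places in Sfrp5 (236 and 180 bases before it), while 29.8% of all 32851 promoters of that length hold at least 1. The TCF/LEF word stood in Frzb and at 2 places in Dkk1, against 16% of all promoters. No match was found in these windows of Sfrp2 and Wif1, which says only that these letters are not there.

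Gata6 itself was not lower under the KO label, so directions below are between labels. Gata6 read 11.58, 11.39 and 11.19 in KO 1 to KO 3, against 11.12, 10.26 and 10.42 in WT 1 to WT 3, in log2(intensity + 16) at its brightest probe set, the scale of all log2 levels here. The arrays labelled KO lay above those labelled WT without overlap, by 0.79 (SE 0.25, adjusted p = 0.963 in limma). Whether its probes lie in the deleted part is not known here, so this level does not check the labels. Fluidics station 2 processed KO 1 to KO 3 and WT 3, station 1 processed WT 1 and WT 2, and all arrays labelled WT were scanned first, so scan order and label cannot be told apart. The main difference between arrays ran across the labels: bright probe sets without a gene name were stronger in KO 2, KO 3 and WT 1, with medians of -1.19, -0.66 and -0.87 log2 relative to bright named ones, against -1.97 in KO 1, -1.98 in WT 2 and -1.88 in WT 3. Of the lung's defining markers, Sftpc, the surfactant gene of type II cells, read 12.71 to 15.74 in the arrays labelled KO and 15.60 to 15.79 in those labelled WT, and Scgb1a1, of club cells, 14.25 to 14.52 and 14.23 to 15.38. Other epithelial markers were uneven. The lipid transporter gene Abca3 of type II cells read 11.26, 10.64 and 6.12 in KO 1 to KO 3, against 11.70 to 12.29 in the arrays labelled WT. Rtkn2, of type I cells, varied under both labels, at 4.69, 8.78 and 6.54 in KO 1 to KO 3, against 9.96, 8.54 and 5.96 in WT 1 to WT 3. The other type I markers spanned at most 0.79 log2 over the arrays labelled WT. Of these Akap5 read 9.43, 11.57 and 10.45 in KO 1 to KO 3, against 12.60, 12.61 and 12.62 in WT 1 to WT 3. Its difference was -2.12 (SE 0.52, adjusted p = 0.963 in limma).

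Of the 9 antagonists, 4 gave a readable signal in these lungs: Sfrp1, Sfrp2, Wif1 and Dkk3. Readable means a mean over the 6 arrays at or above 5.30 log2, the median of all probe sets, which is an intensity of 23.4. Together they had 7 such probe sets, and the other 10 probe sets, all 8 of Frzb, Sfrp4, Sfrp5, Dkk1 and Dkk2 among them, lay below. No member probe set differed between the labels past an adjusted p of 0.05 in limma (0 of 17, and 0 of 17 at an unadjusted p under 0.05). Over all probe sets the adjusted test called 0 of 45037 (0%), and 1394 (3.1%) had an unadjusted p under 0.05, 1.74% lower and 1.35% higher under the KO label. The smallest unadjusted p of a member was 0.0708, for Dkk3, and the adjusted p of the members lay between 0.963 and 0.991. Simulated arrays of this size recovered 13 of 100 probe sets, drawn from the brighter ones, changed by 1 log2 and 52 of 100 changed by 2 log2 in limma, so a member that did not pass may still differ.

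**Figure D1:**
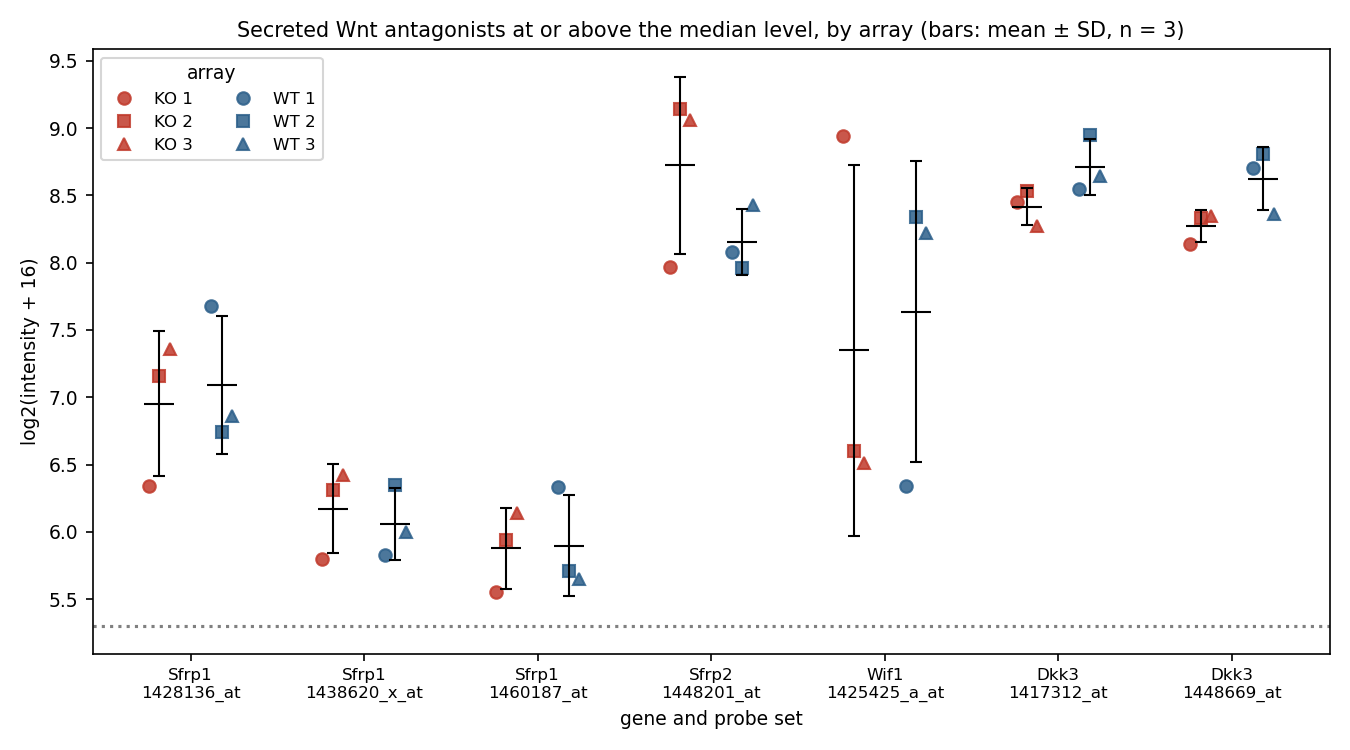
Level of the 7 readable probe sets of Sfrp1, Sfrp2, Wif1 and Dkk3 in each array, in log2(intensity + 16), with red for the arrays labelled KO, blue for those labelled WT, and a mean ± SD bar over 3 arrays. Wif1 runs from 6.34 in WT 1 to 8.94 in KO 1 and overlaps fully between the labels, while the Dkk3 points labelled KO lie just below those labelled WT; the dotted line is the median of all probe sets, 5.30.

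Sfrp2 had the largest difference among the readable antagonists, toward higher levels in the arrays labelled KO, and did not pass the test. The gene lies at chr3:83765750-83774314 (GRCm38.p6, as for all positions of genes). Its probe set 1448201_at read 7.97, 9.14 and 9.06 in KO 1 to KO 3, against 8.08, 7.96 and 8.43 in WT 1 to WT 3. KO 2 and KO 3 lay above all arrays labelled WT, and KO 1 lay within them. The means were 8.72 ± 0.66 in the arrays labelled KO and 8.16 ± 0.24 in those labelled WT (SD, n = 3 each), a difference of 0.57 (SE 0.35), or 1.48-fold, with a 95% interval from -0.30 to 1.43 and an adjusted p of 0.963 in limma. The difference was 0.95 without KO 1 and 0.36 without KO 2, and 0.29 within fluidics station 2 (SE 0.56), where the arm labelled WT is the single array WT 3. As intensities, Sfrp2 read 234, 550 and 518 in KO 1 to KO 3, against 255, 233 and 329 in WT 1 to WT 3.

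Sfrp1 did not separate the labels in any of its 5 probe sets (gene at chr8:23411383-23449632). The brightest, 1428136_at, read 6.34, 7.16 and 7.36 in KO 1 to KO 3, against 7.68, 6.74 and 6.86 in WT 1 to WT 3. The highest array was WT 1 and the lowest KO 1, with the remaining 4 between them in mixed order. Its difference was -0.14 (SE 0.39, 95% interval -1.10 to 0.82, adjusted p = 0.963 in limma), and it changed sign to 0.16 without KO 1 and 0.15 without WT 1. The probe set 1438620_x_at, whose suffix marks probes that may bind other transcripts, read 5.80, 6.31 and 6.42 in KO 1 to KO 3, against 5.83, 6.35 and 6.00 in WT 1 to WT 3. It thus did not share the high value of WT 1, and differed by 0.11 (SE 0.28). The remaining 3 carry the same transcript accession as each other, so they are not independent readings. Of these 1460187_at read 5.55, 5.94 and 6.14 in KO 1 to KO 3, against 6.33, 5.71 and 5.65 in WT 1 to WT 3, with WT 1 again the highest and KO 1 again the lowest, and differed by -0.02 (SE 0.29). The other two lay just below the median of all probe sets, at means of 5.29 (1448395_at) and 5.24 (1416594_at), and they are the members nearest to that line. The first of them read 5.35, 5.51 and 5.17 in KO 1 to KO 3, against 4.89, 5.35 and 5.46 in WT 1 to WT 3, with WT 1 here the lowest array. The other read 5.15, 5.33 and 5.17 in KO 1 to KO 3, against 5.22, 5.25 and 5.32 in WT 1 to WT 3. Their differences were 0.11 (SE 0.18) and -0.05 (SE 0.09), so that the 5 probe sets of Sfrp1 disagreed in sign and none exceeded the spread between arrays.

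Wif1 varied more between the arrays than any other antagonist, and did so across the labels. The gene lies at chr10:121034004-121100642, and WIF1 is known as a gene silenced in human lung cancer. Its probe set 1425425_a_at read 8.94, 6.60 and 6.51 in KO 1 to KO 3, against 6.34, 8.34 and 8.22 in WT 1 to WT 3. KO 1, WT 2 and WT 3 were high, and KO 2, KO 3 and WT 1 were low, with a gap of 1.62 between the lowest high array and the highest low one. As intensities these were 474, 81.1 and 74.8 in KO 1 to KO 3, against 65.3, 308 and 283 in WT 1 to WT 3, a 7.26-fold span from WT 1 to KO 1. That range of 2.59 log2 exceeds the range of 98.2% of all readable probe sets, whose median range is 0.73. The means were 7.35 ± 1.38 in the arrays labelled KO and 7.64 ± 1.12 in those labelled WT (SD, n = 3 each), and the difference of -0.29 (SE 0.86, 95% interval -2.41 to 1.84, adjusted p = 0.963 in limma) was small beside that spread. Its sign rested on single arrays, with -1.08 without KO 1, -0.93 without WT 1, 0.08 without KO 2, 0.13 without KO 3, 0.06 without WT 2 and 0.0049 without WT 3, and -0.88 (SE 1.14) within fluidics station 2.

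The arrays with low Wif1, KO 2, KO 3 and WT 1, are those in which the unnamed bright probe sets, described above, were stronger. The same 3 arrays read highest for Sfrp1 at its brightest probe set. With that signal difference as a covariate, the difference between the labels was 0.28 for Wif1 (SE 0.30, against 0.86 without the covariate). For Sfrp1 it was -0.39 (SE 0.14, against 0.39), and neither passed (adjusted p = 0.786 for each in limma). That value is for the brightest Sfrp1 probe set. At the others the difference with the covariate was 0.09 (1438620_x_at, SE 0.27), -0.18 (1460187_at, SE 0.14), 0.20 (1448395_at, SE 0.14) and -0.04 (1416594_at, SE 0.09), again of mixed sign. For Sfrp2 it was 0.44 (SE 0.32), and for Dkk3 -0.24 (1417312_at, SE 0.13) and -0.39 (1448669_at, SE 0.15). With the covariate the unadjusted p in limma was 0.0402 for 1428136_at of Sfrp1 and 0.0493 for 1448669_at of Dkk3. The adjusted p was 0.786 for both. The part of RNA composition in these levels was not tested further.

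**Figure D2:**
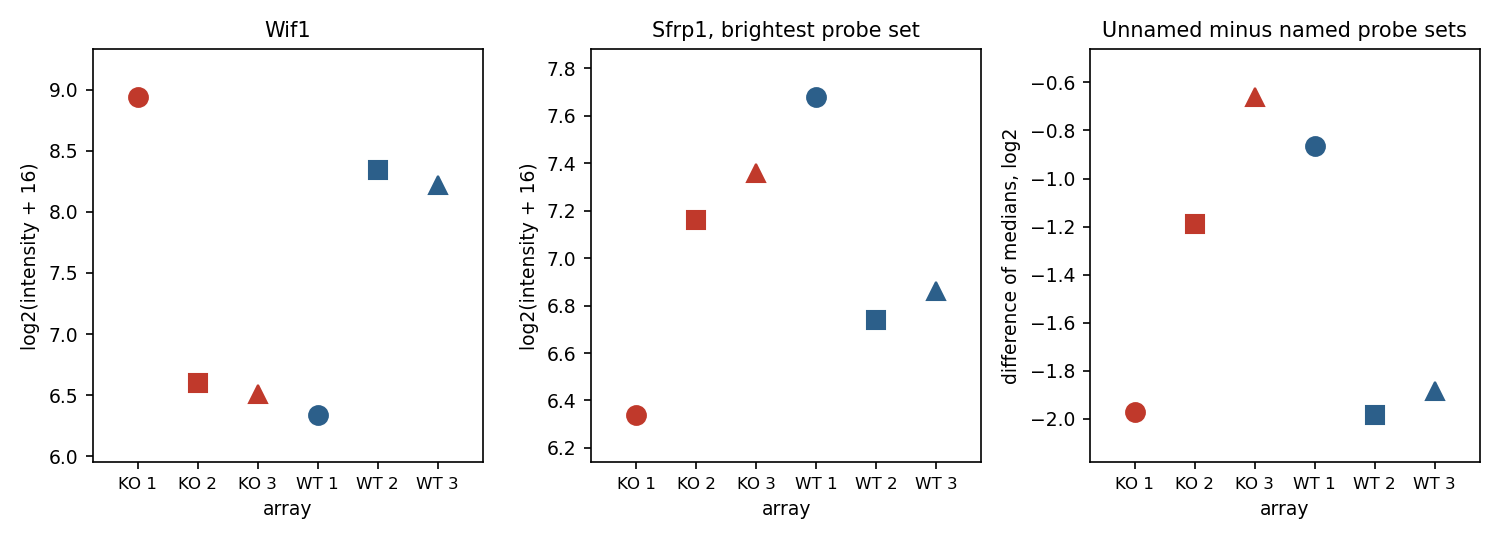
Level of Wif1 and of the brightest Sfrp1 probe set in each array, in log2(intensity + 16), beside the difference of medians between unnamed and named bright probe sets, in log2, with red for arrays labelled KO and blue for arrays labelled WT. KO 2, KO 3 and WT 1 are low for Wif1 (6.34 to 6.60), high for Sfrp1 (7.16 to 7.68) and high in the right panel (-1.19 to -0.66).

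Dkk3 was the antagonist whose readings lay closest to a separation of the labels, toward lower levels in the arrays labelled KO, and it did not pass. The gene lies at chr7:112116019-112159482. The probe set 1417312_at read 8.45, 8.53 and 8.27 in KO 1 to KO 3, against 8.55, 8.95 and 8.64 in WT 1 to WT 3. The probe set 1448669_at read 8.14, 8.33 and 8.35 in KO 1 to KO 3, against 8.70, 8.81 and 8.36 in WT 1 to WT 3. In both, every KO value lay below every WT value, by a gap of 0.014 log2 between the nearest arrays in the first and 0.009 in the other. The differences were -0.29 (SE 0.15, 95% interval -0.67 to 0.08) and -0.35 (SE 0.16, 95% interval -0.74 to 0.04), or 1.23-fold and 1.28-fold lower in the arrays labelled KO, each with an adjusted p of 0.963 in limma. These were the 2 member probe sets of 17 without overlap, both from 1 gene and with the same transcript accession. Such a separation with KO below was found in 2.76% of all probe sets and 5.12% of readable ones, and with KO above, which no member showed, in 5.72% and 4.45%. Within fluidics station 2 the differences were -0.23 (SE 0.24) and -0.09 (SE 0.24), so that at 1448669_at the arrays labelled KO were close to WT 3.

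Of the 7 readable member probe sets 5 read lower under the KO label and 2 higher, with a median difference of -0.14, against a median of -0.008 and 51.4% lower among all readable probe sets. Over all 17 the median was 0.002, against 0.003 over all probe sets.

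The remaining 5 antagonists, Frzb, Sfrp4, Sfrp5, Dkk1 and Dkk2, read near the floor of the arrays under both labels. Their 8 probe sets had intensities between 4.09 and 11.6 in all arrays, on arrays whose lowest value is 2.04 to 2.07. DKK1 and DKK2 are family members that act through LRP5 and LRP6. Dkk1 read 4.49, 4.51 and 4.48 in KO 1 to KO 3, against 4.46, 4.48 and 4.49 in WT 1 to WT 3 at 1458232_at. At 1420360_at, the dimmest member probe set, it read 4.34, 4.34 and 4.33, against 4.33, 4.33 and 4.34. Dkk2 read 4.54, 4.54 and 4.52 in KO 1 to KO 3, against 4.51, 4.52 and 4.53 in WT 1 to WT 3. At such low intensities the added 16 compresses differences, so these profiles do not show whether the genes differ.

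Among the floor-level SFRP genes, Frzb (also called SFRP3, a factor of cartilage) showed the one departure from a flat profile. At 1416658_at it read 4.59, 4.43 and 4.43 in KO 1 to KO 3, against 4.42, 4.44 and 4.73 in WT 1 to WT 3, that is intensities of 8.10 in KO 1 and 10.52 in WT 3 and between 5.44 and 5.65 in the others. At 1448424_at it read 4.39, 4.40 and 4.38, against 4.38, 4.39 and 4.40. The defining cartilage markers Col2a1, Acan and Matn1 were near the floor, and 2 of 7 cartilage genes were readable. The summed intensity of the 7 was 566, 263 and 150 in KO 1 to KO 3, against 192, 294 and 459 in WT 1 to WT 3, and its part in the Frzb readings was not tested. Sfrp4 read 4.52, 4.53 and 4.51 in KO 1 to KO 3, against 4.50, 4.54 and 4.51 in WT 1 to WT 3. Sfrp5, a factor of the foregut, read 4.78, 4.79 and 4.76, against 4.77, 4.75 and 4.78 at 1423023_at, and 4.55, 4.59 and 4.55, against 4.53, 4.55 and 4.55 at 1436075_at, KO 1 to KO 3 before WT 1 to WT 3. The GATA words shown above for Frzb and Sfrp5 thus stand in promoters of genes with little signal under either label.

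**Figure D3:**
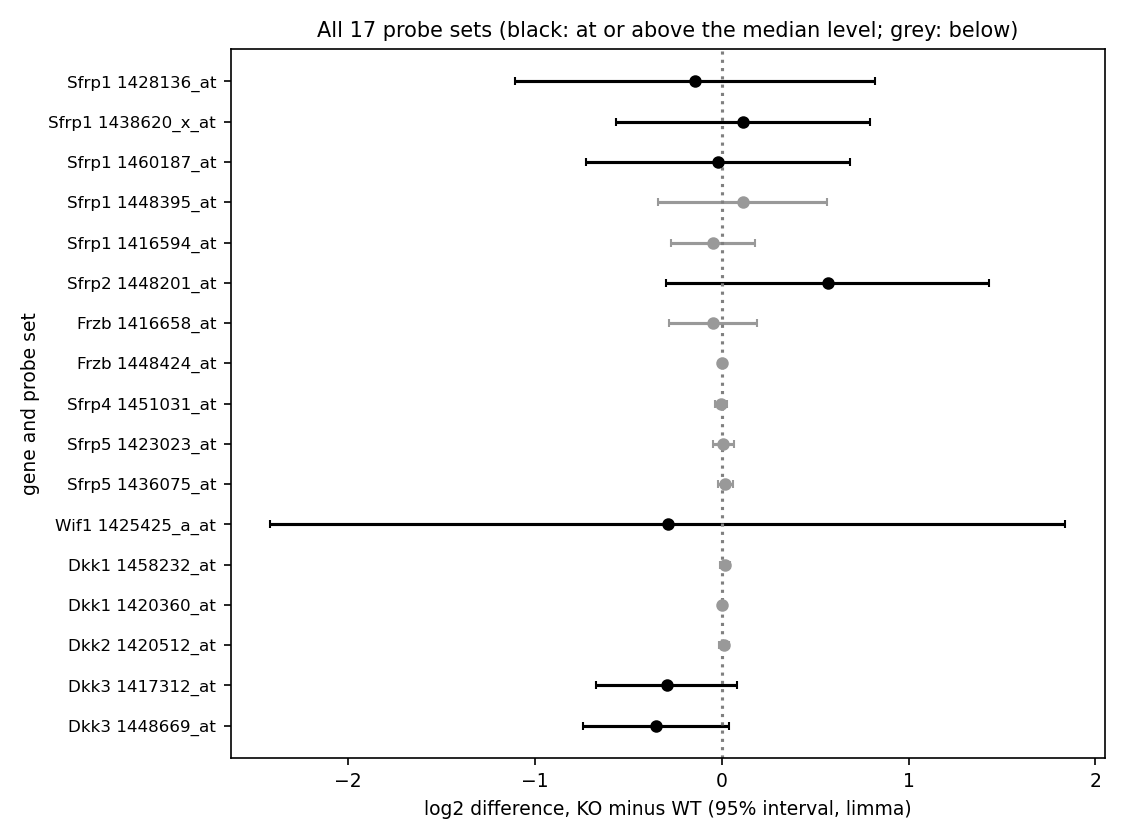
KO minus WT difference for all 17 probe sets, in log2, with the 95% interval from limma, black for readable probe sets and grey for those below the median of all probe sets. All intervals include 0, the widest is that of Wif1 (-2.41 to 1.84), and the probe sets of the 5 floor-level genes have differences of at most 0.046 in size.

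The genes whose pattern over the 6 arrays lay closest to each readable member were found by the root mean square distance between mean-centred log2 profiles. For Sfrp1 these were Aopep, an aminopeptidase gene, and 1810019D21Rik, at 0.083 and 0.093. For Sfrp2 they were Spata24 and Spa17, genes named for their association with sperm, at 0.159 and 0.181. Spa17 read 9.53, 10.19 and 10.16 in KO 1 to KO 3, against 9.12, 9.05 and 9.65 in WT 1 to WT 3, with KO 2 and KO 3 high as for Sfrp2. For Wif1 they were Celsr1, a planar cell polarity cadherin, and Arsb, a lysosomal sulfatase, at 0.374 and 0.375, the largest distances of the 4 members. The distance is not scaled to a gene's range, and Wif1 also had the largest range (2.59). Celsr1 read 9.41, 7.48 and 7.68 in KO 1 to KO 3, against 7.68, 8.73 and 8.66 in WT 1 to WT 3, again high in KO 1, WT 2 and WT 3. For Dkk3 they were Impdh1, an enzyme of guanine nucleotide synthesis, and E130309D02Rik, at 0.044 and 0.048. Each was the nearest of 1413 (Wif1) to 10596 (Dkk3) genes on only 6 shared arrays, so close neighbours are a description of these arrays.

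Several lists of cell type markers shared the sign of the Dkk3 or Sfrp2 difference between the labels, though not the order of the single arrays, and in whole lung fewer cells of a type and less RNA per cell cannot be told apart. Like Dkk3, all 6 endothelial markers read lower in the arrays labelled KO (median -0.69), with a summed intensity of 5974 to 6858 in the arrays labelled KO and 6630 to 10389 in those labelled WT. All 6 smooth muscle markers (median -0.26) did so too, at sums of 6527 to 9292 and 7536 to 11293, and all 6 markers of alveolar type I cells (median -1.32), at 29066 to 59061 and 53518 to 71857. Of 4 measured type II cell markers 3 read lower and 1 higher (median -0.58), at sums of 24066 to 93202 and 68550 to 87851. KO values lay below WT values without overlap in 1 marker each of the endothelial, type I, type II and mesenchymal lists. No smooth muscle marker did so. KO values lay above WT values without overlap in 2 markers each of the ciliated, club cell and mesenchymal lists. Separation with KO below was found in 5.9% of all readable genes, and with KO above in 5.34%. WT 2, the highest array for Dkk3 at both probe sets, was also the highest for the endothelial sum (10389) and the type I sum (71857). Unlike in Dkk3, KO 1 (6858) lay above WT 1 (6630) in the endothelial sum. In the type I sum KO 2 (59061) lay above WT 3 (53518). The smooth muscle sum of WT 2 was 7536, below KO 1 and KO 3, and its type II sum of 87851 was below KO 2 (93202). Like Sfrp2, 4 of 5 markers of ciliated cells read higher (median 0.36), at sums of 1405 to 2140 in the arrays labelled KO and 929 to 1344 in those labelled WT, without overlap, and KO 1 was above all arrays labelled WT there but not for Sfrp2. Of 8 mesenchymal markers 3 read higher and 5 lower (median -0.03, sums of 62532 to 80607 and 69948 to 75795). The matrix genes Lum and Dcn lay above without overlap, at differences of 1.47 (SE 0.31) and 1.10 (SE 0.20). Tbx4 lay below without overlap, at -0.33 (SE 0.13). No marker of these lists passed over all probe sets in limma, and the part of any cell type in the Dkk3 and Sfrp2 readings was not tested. Of 7 mesothelial markers 5 read lower (median -0.22), and their sum was 5755 in KO 1, the array with the lowest Sfrp1, against 10513 and 14543 in KO 3 and KO 2 and 7770 to 14026 in the arrays labelled WT. KO 1 also had the lowest sum of type I (29066), type II (24066), cardiac (1378) and leukocyte (6475) genes. Its sums of mesenchymal (80607) and cartilage (566) genes were the highest of the 6 arrays. Of the leukocyte genes Lyz2 was lowest in KO 1 (12.42). Ptprc (7.42) and Csf1r (9.29) were lowest in WT 1, and Cd68 (6.23) in KO 3. The part of any cell type in the Sfrp1 readings was not tested. The lists of other tissues were near the floor or mixed: none of 5 thymus genes and none of the 2 measured genes of glia and nerve was readable, and 1 of 5 each of skeletal muscle and squamous oesophagus genes was. Cardiac genes summed to 1378 to 4451 and 1761 to 3605, and leukocyte genes to 6475 to 33312 and 12278 to 27751, the arrays labelled KO before those labelled WT. Of 4 club cell markers 2 read higher and 2 lower (median 0.10), at sums of 72314 to 79786 in the arrays labelled KO and 55605 to 90386 in those labelled WT.

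The rest of the Wnt pathway was described through 6 lists with 60 genes, 58 of them measured, each by its brightest probe set. None of the 58 passed in limma, higher or lower, and 2 had an unadjusted p under 0.05 (3.45% of 58, against 4.3% of all genes). Of the 33 readable ones 26 read lower in the arrays labelled KO and 7 higher, where 54% of readable genes read lower in all. In 4 readable genes, Wnt3a, Wnt9a, Fzd1 and Ryk, the KO values lay below the WT values without overlap, as in 5.9% of all readable genes. In 1, Wnt11, they lay above (5.34%), by a difference of 0.01.

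Among the partners of the antagonists, the DKK co-receptor Lrp6 read 10.21, 9.57 and 9.63 in KO 1 to KO 3, against 10.28, 10.09 and 10.14 in WT 1 to WT 3. The arrays overlapped, with KO 1 inside the range of the arrays labelled WT, and the difference was -0.37 (SE 0.19, adjusted p = 0.963 in limma). Lrp5 read near the floor, and Kremen1 differed by -0.19 (SE 0.24). The frizzled receptors Fzd1 and Fzd2, which SFRP proteins resemble in their Wnt-binding domain, differed by -0.50 (SE 0.14) and -0.64 (SE 0.26), and 9 of the 11 readable receptor genes read lower (median of the 13 measured -0.12). Fzd1 was 1 of the 2 pathway genes with an unadjusted p under 0.05. The other was Apcdd1, a membrane-bound Wnt inhibitor, which read 9.72, 9.97 and 9.25 in KO 1 to KO 3, against 9.91, 10.58 and 10.71 in WT 1 to WT 3 (difference -0.75, SE 0.28, adjusted p = 0.963 in limma).

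Of the other antagonists on that list Notum differed by -0.12 (SE 0.06) near the floor, and 2 of the 9, Apcdd1 and Igfbp4, were readable. Among the secreted agonists, the R-spondin gene Rspo1 differed by -0.05 (SE 0.26). Rspo2, which amplifies Wnt signals in lung mesenchyme, read 8.17, 6.74 and 6.98 in KO 1 to KO 3, against 5.21, 5.76 and 7.26 in WT 1 to WT 3, higher by 1.22 (SE 0.65) with WT 3 above KO 2 and KO 3. Of the ligands, Wnt2, made by lung mesenchyme, differed by -0.31 (SE 0.18) and Wnt7b, made by lung epithelium, by -0.10 (SE 0.29), and 8 of 9 readable ligands read lower. Axin2, a feedback inhibitor switched on by beta-catenin, read 7.52, 7.20 and 7.40 in KO 1 to KO 3, against 8.13, 8.05 and 7.46 in WT 1 to WT 3. KO 1 lay just above WT 3, and the difference was -0.51 (SE 0.23, adjusted p = 0.963 in limma). Within station 2, with WT 3 as the single array labelled WT, the differences were 0.04 for Rspo2, -0.09 for Axin2 and -0.0015 for Notum. They were -1.06 for Apcdd1, -1.01 for Fzd2, -0.385 for Fzd1, -0.37 for Wnt2 and -0.34 for Lrp6. Those of Rspo1 (0.34), Wnt7b (0.21), Lrp5 (0.03) and Lef1 (0.0035) were above 0 there. Lef1 read near the floor, and of the 7 readable targets 4 read lower and 3 higher (median of the 10 measured -0.09).

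**Figure D4:**
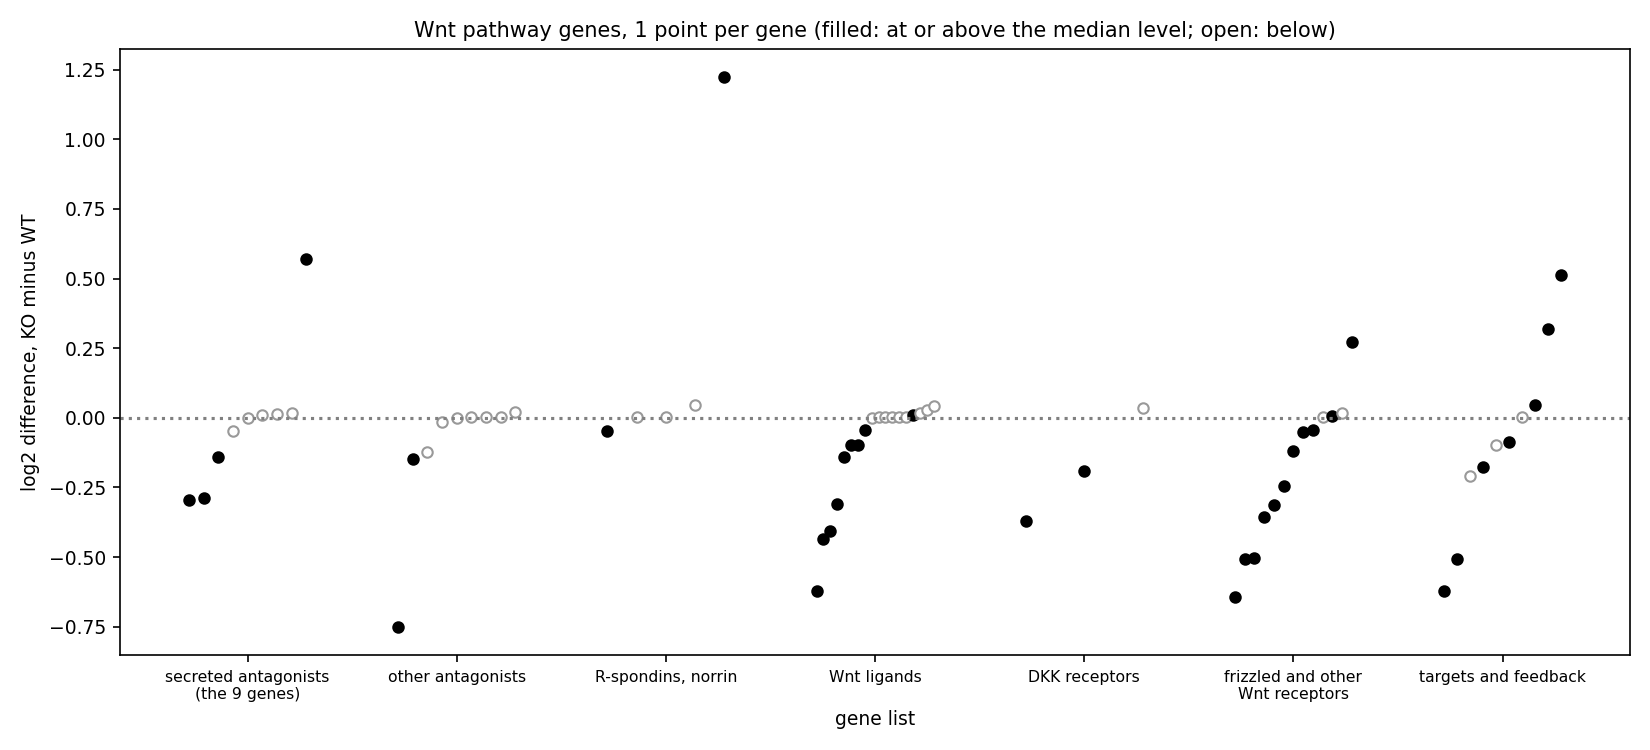
KO minus WT difference, in log2, for the 9 antagonist genes and the 58 measured genes of 6 further Wnt pathway lists, with 1 point per gene at its brightest probe set, filled where readable and open where below the median of all probe sets. Most filled points lie below 0 (26 of 33 outside the antagonists), Rspo2 is the highest at 1.22, and most open points lie near 0.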

How the data were processed

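Total RNA (5 µg per array, per the labels' protocols) was hybridised to 6 arrays. The deposited values are linear intensities per probe set. GCRMA and MAS5 appear in the submitters' processing notes, with no version or role, and the tool behind the deposited values is not given in the sources used here. Array medians are similar (20.5 to 23.9), and the deposited intensities were taken as already normalised between arrays.

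Control probe sets (64 of 45101) were left out. Probe sets were named through gene IDs of the platform annotation (34945 name 1 gene, 932 several, 9160 none here), and a RefSeq table of GRCm38.p6 gave names and promoters. Values were transformed to log2 after adding 16. The labels were compared in limma 3.58.1 (R 4.3.3; lmFit, eBayes with an intensity trend, two-sided) over all 45037 probe sets, with Benjamini-Hochberg adjustment over all of them and a threshold of 0.05. Every adjusted p is from this limma fit, and the number of arrays limits precision.

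The members and lists were chosen with earlier results of these data known. Every member probe set was named. Each pathway list gave the members past the threshold or, with none, the first 2 measured, by the brightest probe set. For each readable member the 2 nearest genes were taken among those with at least 50% of its range and mean. Wnt3a, Wnt9a, Ryk, Wnt11, Kremen1, Igfbp4, Lum, Dcn, Tbx4, Abca3, Rtkn2, Akap5, Lyz2, Ptprc, Csf1r and Cd68 were named after their values were seen.

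Alternatives were pseudocounts of 1 and 64, quantile normalisation, median centring, leaving out dim probe sets, 1 probe set per gene, eBayes without trend or robust, array weights, a replicate block, fluidics station as a block or station 2 only, an RNA composition covariate, and leaving out each array. The labels do not say that a number marks a shared litter or day, and deviations from the group means of same-numbered arrays correlated at -0.774, 0.00918 and -0.490 across readable probe sets, so the numbers were not used as pairs. In the simulation, run on 45037 probe sets, 100 with a WT mean above the median were changed by each size, 5 unchanged ones were called, and with no change 5.13% had an unadjusted p under 0.05.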

Additional observations from a re-analysis of the deposited data

How the results depend on the processing

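No member was called by limma under any of the 19 alternatives. The directions of Sfrp2 (0.29 to 0.95) and of both Dkk3 probe sets (-0.45 to -0.18 and -0.54 to -0.09) held in all of those run on them, as did that of 1416594_at of Sfrp1 (-0.10 to -0.01). Of 305 recomputed member differences 260 kept their sign and 45 turned, 24 at floor-level genes, 16 at Sfrp1 and 5 at Wif1. Not all of these could turn. Leaving out dim probe sets and taking 1 probe set per gene left the differences of the main fit unchanged. So did eBayes without trend or robust, and the replicate block. Blocking the station gave the same differences as keeping a single station, so those values are counted again. The 260 kept signs and the directions that held therefore overstate how far they were tested. The count over all probe sets, 0, was 1 with median centring, 1 with 1 probe set per gene and 37 with station as a block, and 0 without any single array. The replicate block changed no call (Sfrp2 0.57, SE 0.31). Each number holds 1 array of each label, so that block could not change a direction. The cause of the turns below was not tested.

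Sfrp1, with the station blocked or with station 2 alone, differed by 0.0896 (1428136_at), 0.23 (1460187_at) and -0.12 (1448395_at), Frzb by -0.0038 (1448424_at), Sfrp4 by 0.0071, Sfrp5 by -0.0005 (1423023_at), Dkk2 by -0.0004, Rspo1 by 0.34, Wnt7b by 0.21 and Lef1 by 0.0035. With array weights Sfrp1 differed by 0.0083 (1428136_at), -0.24 (1438620_x_at) and 0.0482 (1460187_at), and Frzb by 0.0527 (1416658_at). With median centring Frzb differed by -0.032 (1448424_at), Sfrp5 by -0.0242 (1423023_at) and -0.014 (1436075_at), Dkk1 by -0.018 (1458232_at) and -0.0311 (1420360_at) and Dkk2 by -0.0221, where the median of all probe sets moved to -0.03. With quantile normalisation Frzb differed by -0.0019 (1448424_at) and Sfrp5 by -0.0131 (1423023_at). With the composition covariate Sfrp4 differed by 0.0029 and Wif1 by 0.28.

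Leaving out each array gave ranges of -1.08 to 0.13 for Wif1, and for Sfrp1 -0.35 to 0.16 (1428136_at), -0.007 to 0.30 (1438620_x_at), -0.15 to 0.20 (1460187_at) and -0.0581 to 0.23 (1448395_at). They were -0.10 to 0.0541 (1416658_at) and -0.0012 to 0.0064 (1448424_at) for Frzb, -0.0087 to 0.0102 for Sfrp4, -0.0003 to 0.0072 for Dkk1 (1420360_at), -0.24 to 0.16 for Rspo1, -0.26 to 0.11 for Wnt7b, -0.001 to 0.0558 for Lrp5 and -0.16 to 0.0183 for Lef1. Signal limits the floor-level genes, whose intensities were at most 11.6, and the spread between arrays limits Wif1.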
